A study of Mus musculus with 8 samples.

Results

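The ankyrin genes Ank2 and Ank3, the beta spectrin gene Sptbn1 and the dystrophin gene Dmd together held 13 of the 2055 sites, in 789 genes, that the authors listed as differently methylated between aged and young mouse cortex cells. The members were all listed sites that the table assigns to one of these 4 genes. Ank2 held 6 of them, Ank3 held 3, and Sptbn1 and Dmd held 2 each. The table lists only sites that passed its own limits, and the other sites of these genes were not analysed here.

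The aged cells came from the cortex of mice with the genotype APOBEC1-YTH, aged 12 to 14 months when treatment began. Tamoxifen was given for 5 days (20 mg/kg, 1 dose each 24 h), and tissue was taken 7 days after the last dose. The 8 aged libraries were 4 lanes of each of 2 sublibraries of dissociated, fixed cells, so they were not separate animals, and the labels do not say how many mice they came from. All young cells were part of a companion series, and all aged cells of this one. Age therefore cannot be told apart from series, or from how each series was prepared and sequenced, in any difference below. The age, genotype and treatment of the young mice, and the promoter that drives the editor, are likewise not given in the sources used. APOBEC1-YTH joins a cytidine deaminase to the domain that binds N6-methyladenosine (m6A), so that a C beside a methylated A is read as U, and a cell with such C-to-U reads at a site is called methylated there (scDART-seq). The table gives values over 846 aged and 2623 young cells, without values per library, per animal or per read. No replicate error can therefore be given, and the 95% intervals below, which are exact binomial (Clopper-Pearson), cover the counting of cells only. Every p printed is from the authors' deposited table, whose test is not stated, and cells of a mouse are not independent animals. Of the neuron markers looked for, 4 of 6 (Snap25, Syt1, Rbfox3 and Slc17a7) had a listed site, as had 1 of 5 astrocyte markers (Slc1a2), 0 of 4 microglial and 0 of 3 endothelial markers, but the table holds no expression and cannot type the cells.

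The 4 genes encode parts of the skeleton under the plasma membrane. Spectrin tetramers of alpha and beta chains form a mesh with short actin filaments along axons, and ankyrins tie membrane proteins to that mesh. Ank3 encodes ankyrin-G, which gathers sodium channels at the axon initial segment, and Ank2 encodes ankyrin-B, whose giant form, made with an exon used in neurons, lines axons. Sptbn1 encodes beta-II spectrin, and Dmd encodes dystrophin, a protein built largely of spectrin repeats that links actin to the dystroglycan complex and in cortical neurons sits at inhibitory synapses. m6A is laid down on messenger RNA mostly in long internal exons and around the stop codon, and it bears on the stability, export and translation of the RNA.

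The sequences around the sites are shown first, since the edited C is read as the neighbour of a methylated A. Sites are lettered from 5′ to 3′ along each gene. Each stretch has 21 bases on the strand of the gene (GRCm38, from GENCODE M21 transcripts), and the capitals mark the edited C and the base before it. The first 4 belong to the sites with the largest differences in C-to-U averaged over all cells, the next 4 lie in the giant exon of Ank2, and the last 2 are the sites without an A before the edited C.
Dmd site A, chrX:83878604-83878624, plus strand: gagtgttgaACaggaagtaat
Dmd site B, chrX:84575599-84575619, plus strand: agctgcagaACaggagacaac
Sptbn1 site A, chr11:30138738-30138758, minus strand: gcagagttaACacggctaagg
Sptbn1 site B, chr11:30120555-30120575, minus strand: gatgagtgaACaggagttgta
Ank2 site C, chr3:126946689-126946709, minus strand: ccagcaaaaACgaaaaactct
Ank2 site D, chr3:126946649-126946669, minus strand: caaaaccgaACggcattcacc
Ank2 site E, chr3:126944535-126944555, minus strand: actctgagaACggggagaaga
Ank2 site F, chr3:126942632-126942652, minus strand: cacagaaacACccaccaaaga
Ank2 site B, chr3:127031685-127031705, minus strand: aaaaaactgTCaaggggggga
Ank3 site C, chr10:70024608-70024628, plus strand: aaatgcaaaTCtttaaaaagg

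At all 13 sites a larger share of aged than of young cells was methylated. The C-to-U fraction averaged over all cells, called the mean C-to-U below, was higher at 8 of the 13 sites in aged cells and lower at 5. Over all listed sites, 75.4% had the higher share in aged cells and 41.5% had the higher mean. The 95% intervals of the shares lay apart, with aged cells above, at 8 of the 13 sites, against 47.4% of all listed sites. At the 5 remaining sites, Ank2 sites B, D and E and Ank3 sites B and C, the intervals overlapped. The median log2 ratio of shares, aged over young, was 1.84 over the 13 sites and 1.13 over all listed sites. Counting methylated cells alone, 6 of the 13 sites had higher C-to-U in aged cells, against 31.9% of all listed sites. At some sites the aged cells called methylated held little conversion, which the shares do not show. C-to-U within them was 0.656% at Ank2 site C and 0.789% at Ank3 site A, both with intervals apart. It was 1.90% at Ank2 site B and 3.47% at Ank3 site C. In young cells it was 20.0%, 5.49%, 10.6% and 28.1% at these sites, in the same order. A lower mean together with a higher share was seen at 5 of the 13 sites, against 35.3% of all listed sites. A cell with no read at a site counts as unmethylated, so more cells with reads of a gene and more methylation of its RNA cannot be told apart in these shares and means.

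**Figure D1:**
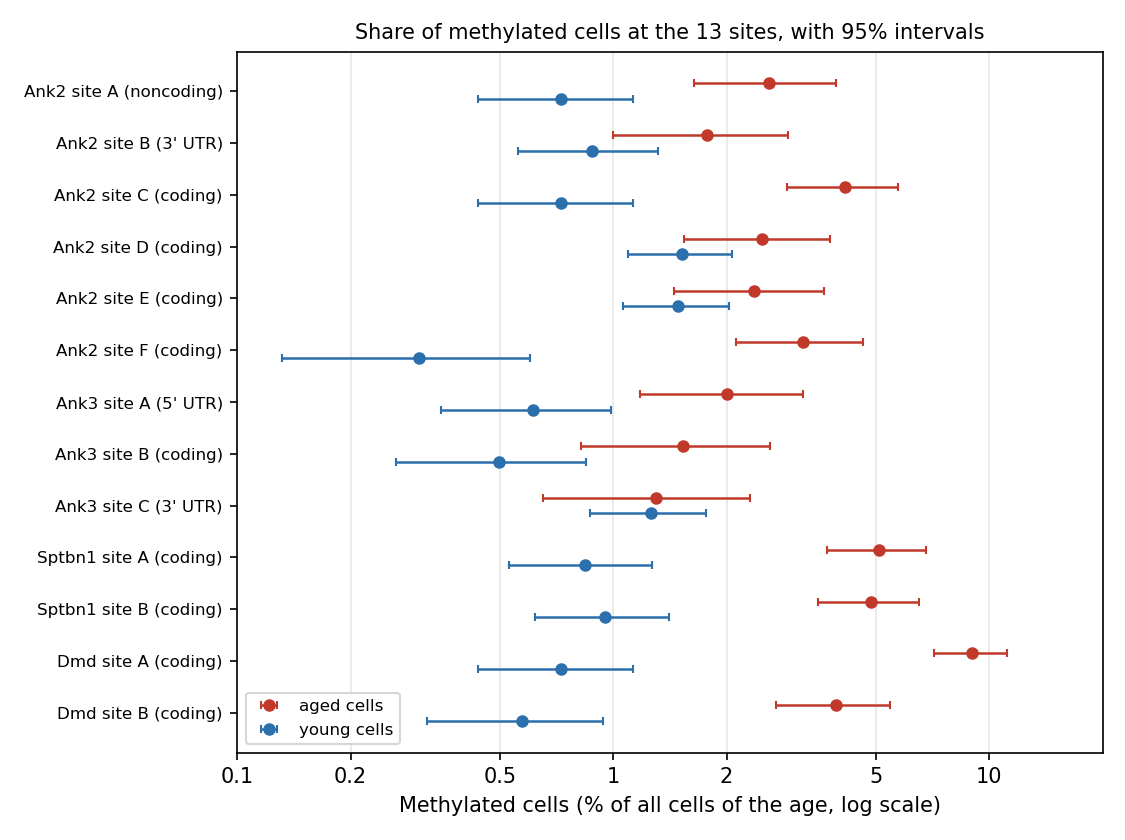
Share of methylated cells (% of all cells of the age, log axis) at each of the 13 sites, with exact binomial 95% intervals, for aged cells (red) and young cells (blue). All 13 red points lie to the right of the blue ones, and at 8 sites the intervals lie apart.

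Dmd site A had the largest difference of the 13 sites, both in the mean and in the share of methylated cells. It lies in exon 32 of 79 of the transcript Dmd-203, in coding sequence, on the X chromosome at position 83878614 (mm10, the same assembly as GRCm38). Methylated cells there made up 8.98% (7.14 to 11.1) of aged and 0.724% (0.437 to 1.13) of young cells, which are 76 of 846 and 19 of 2623 cells. Mean C-to-U was 7.35% in aged and 0.421% in young cells, a 17.5-fold ratio, and the authors' deposited table gives an adjusted p of 5.18e-35. In methylated cells C-to-U reached 81.8% in aged and 58.1% in young cells. Of the log2 ratio of means of 4.13, the share of cells gave 3.63 and C-to-U within cells gave 0.49. The difference in mean stood 8th of all 2055 listed sites from the top and 6th of the coding sites.

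Dmd site B lies in exon 53 of the same transcript, at position 84575609. Methylated cells there made up 3.90% (2.70 to 5.43) of aged and 0.572% (0.320 to 0.941) of young cells, 33 and 15 cells. Mean C-to-U was 2.73% in aged and 0.334% in young cells, and the authors' deposited table gives an adjusted p of 1.20e-08. In methylated cells C-to-U was 69.9% in aged and 58.4% in young cells. Both sites lay in exons that only Dmd-203 carries among the 3 annotated coding transcripts of Dmd. The young values of the sites were close, while the aged share was 8.98% at site A and 3.90% at site B.

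Sptbn1 also had both of its sites in coding sequence and higher in aged cells. Sptbn1 site A lies in exon 13 of 31 of Sptbn1-203, on chromosome 11 at position 30138748, and site B in exon 22 at position 30120565. All 4 annotated coding transcripts of Sptbn1 hold both sites. At site A methylated cells made up 5.08% (3.70 to 6.79) of aged and 0.839% (0.526 to 1.27) of young cells. At site B they made up 4.85% (3.50 to 6.52) of aged and 0.953% (0.618 to 1.40) of young cells. The sites thus agreed within counting error at each age, with the intervals of the ages apart at both. Mean C-to-U was 3.78% in aged and 0.383% in young cells at site A, a 9.88-fold ratio. At site B it was 3.96% in aged and 0.597% in young cells, a 6.63-fold ratio. The adjusted p in the authors' deposited table was 2.32e-18 at site A and 2.90e-18 at site B. Within methylated cells C-to-U was 74.5% in aged and 45.7% in young cells at site A, and 81.6% in aged and 62.6% in young cells at site B.

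**Figure D2:**
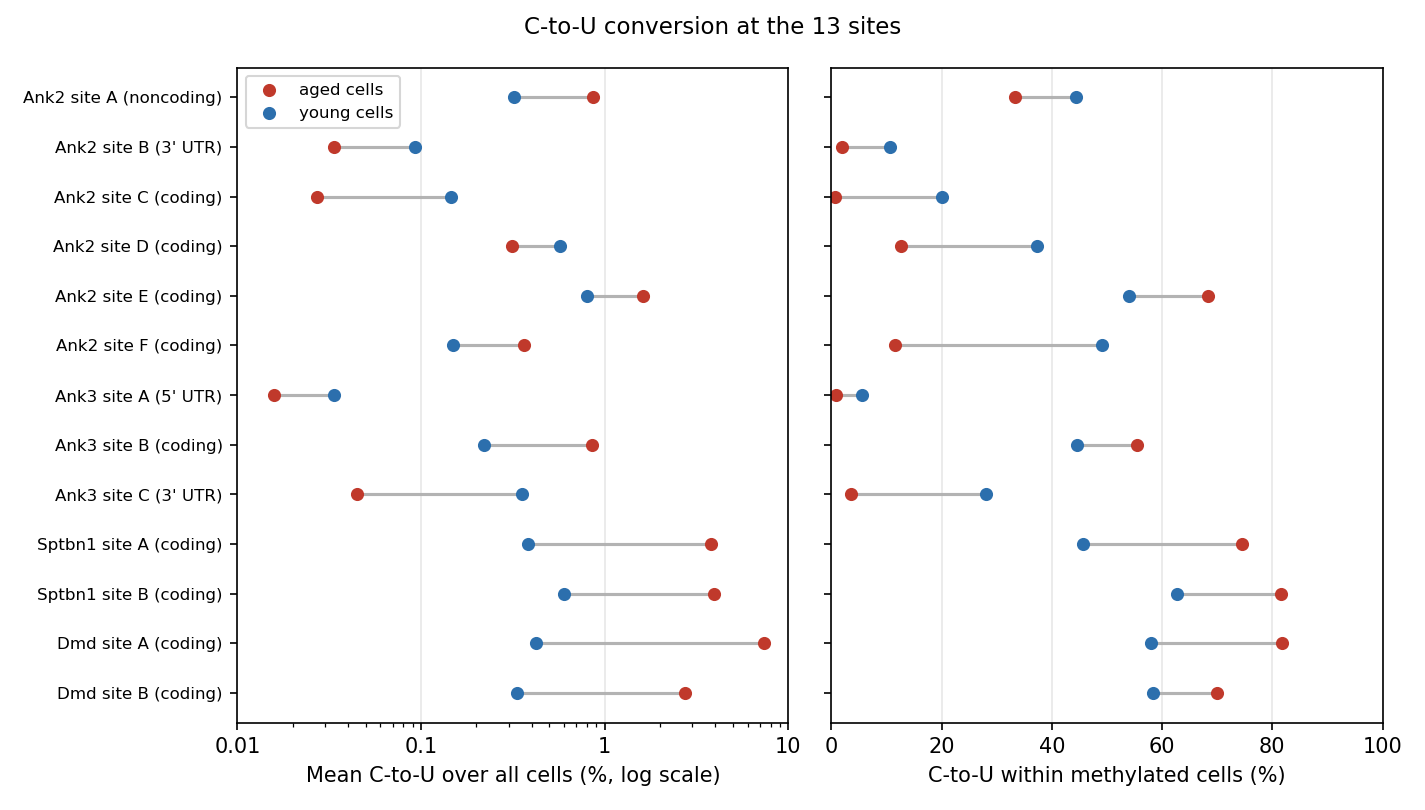
Mean C-to-U over all cells (left, %, log axis) and C-to-U within methylated cells (right, %) at each site, for aged cells (red) and young cells (blue), joined by a grey line. At the Dmd and Sptbn1 sites aged cells lie to the right in both panels, while at Ank2 site C mean C-to-U was 0.0272% in aged and 0.145% in young cells.

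Ank2 went in both directions within a single exon. Sites C to F all lie in exon 37 of 46 of Ank2-208, an exon of 6198 bases on chromosome 3 that 2 of the 16 annotated coding transcripts carry. At sites E and F mean C-to-U was higher in aged cells. Site E, at position 126944545, had a mean of 1.62% in aged and 0.802% in young cells, with methylated cells at 2.36% (1.45 to 3.63) of aged and 1.49% (1.06 to 2.03) of young cells. Site F, at position 126942642, had a mean of 0.365% in aged and 0.150% in young cells, with methylated cells at 3.19% (2.11 to 4.61) of aged and 0.305% (0.132 to 0.600) of young cells. Only 8 young cells were methylated at site F, against 27 aged cells. The sites differed within methylated cells. C-to-U there was higher in aged cells at site E, at 68.4% in aged and 53.9% in young cells. At site F it was lower, at 11.4% in aged and 49.0% in young cells, so the higher mean at site F went with the share of cells alone. The RefSeq table for GRCm38.p6 places a transcript start of Ank2 at position 126943386, between sites E and F, so that site F also lies downstream of that start.

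At sites C and D of the same exon the mean was lower in aged cells although the share of methylated cells was not. Site C, at position 126946699, had a mean of 0.0272% in aged and 0.145% in young cells, but methylated cells made up 4.14% (2.90 to 5.71) of aged and 0.724% (0.437 to 1.13) of young cells. In methylated cells its C-to-U was 0.656% in aged cells, over 35 cells, and 20.0% in young cells, over 19 cells. Site D, 40 bases further 3′ at position 126946659, had a mean of 0.311% in aged and 0.570% in young cells. Methylated cells there were 2.48% (1.54 to 3.77) of aged and 1.52% (1.09 to 2.07) of young cells. Within methylated cells C-to-U was 12.5% in aged and 37.4% in young cells at site D. Sites this close can share reads, and the reads behind a fraction within a cell are not in the table. The adjusted p in the authors' deposited table was 3.83e-15 at site C, 0.0140 at site D, 0.000589 at site E and 3.18e-10 at site F.

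**Figure D3:**
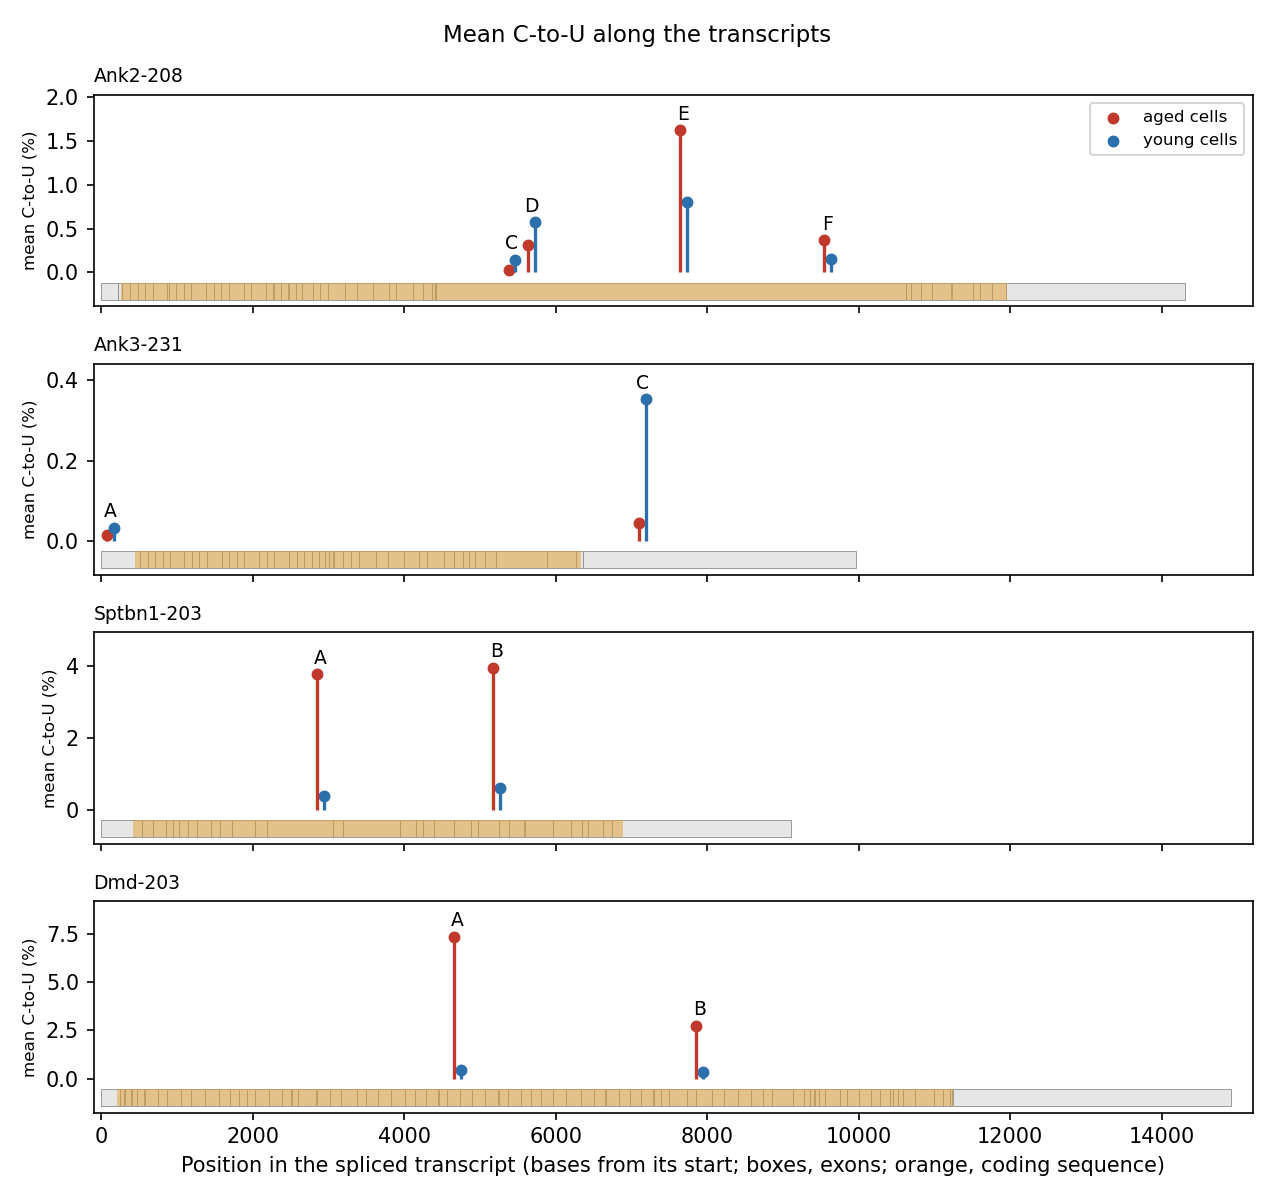
Mean C-to-U (%) in aged cells (red) and young cells (blue) along 4 spliced transcripts, in bases from the transcript start, with exons as boxes and coding sequence in orange. The aged and young stems of a site are drawn side by side, and Ank2 sites C and D are moved apart. The 3 sites outside these transcripts, Ank2 sites A and B and Ank3 site B, are not drawn.

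The other 2 Ank2 sites lie outside the giant exon. Site A, at position 127336374, is in the last exon of Ank2-225, a noncoding transcript with a retained intron. Its mean was 0.866% in aged and 0.321% in young cells, with methylated cells at 2.60% (1.64 to 3.91) of aged and 0.724% (0.437 to 1.13) of young cells. In methylated cells its C-to-U was lower in aged cells, at 33.3% in aged and 44.3% in young cells. Site B, at position 127031695, is in the 3′ UTR of Ank2-221, a short coding transcript, 292 bases after its stop codon, and in the transcript with the longest coding sequence the position is intronic. Its mean was 0.0337% in aged and 0.0927% in young cells, while methylated cells were 1.77% (0.996 to 2.91) of aged and 0.877% (0.557 to 1.31) of young cells. The adjusted p in the authors' deposited table was 0.000274 at site A and 3.90e-09 at site B. A further 3 listed sites lie within the span of Ank2 on the same strand but are assigned to Gm43322, an unclassified transcript, and were not counted. All 3 had a higher mean in aged cells.

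The 3 Ank3 sites lie in 3 different regions, and only the site annotated as coding had a higher mean in aged cells. Ank3 site B, on chromosome 10 at position 69706893, is coding in a single transcript, Ank3-233, and falls in retained-intron transcripts otherwise. Its mean was 0.852% in aged and 0.221% in young cells, with methylated cells at 1.54% (0.821 to 2.61) of aged and 0.496% (0.264 to 0.846) of young cells, 13 cells at each age. Site A, in the 5′ UTR of Ank3-231 at position 69533895, had a mean of 0.0159% in aged and 0.0335% in young cells. Its methylated cells were 2.01% (1.17 to 3.20) of aged and 0.610% (0.349 to 0.989) of young cells, and C-to-U within them was 0.789% in aged and 5.49% in young cells. Site C, in the 3′ UTR of Ank3-231 at position 70024618 and 810 bases after the stop codon, had a mean of 0.0451% in aged and 0.353% in young cells. The shares at site C differed least of the 13 sites, at 1.30% (0.651 to 2.31) of aged and 1.26% (0.868 to 1.76) of young cells. In methylated cells C-to-U was 3.47% in aged and 28.1% in young cells at site C, so its difference in mean lay almost wholly within cells. The adjusted p in the authors' deposited table was 1.69e-06 at site A, 0.00843 at site B and 0.000130 at site C.

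Most coding sites of the 4 genes had a higher mean in aged cells, and neither 3′ UTR site did. Over the whole table, too, coding sites had it more often, so the contrast is not particular to these genes. Only 2 sites lay in a 3′ UTR, both with overlapping share intervals. In the transcript with the longest coding sequence of its gene, neither lies in a 3′ UTR. Of the 9 coding sites, 7 had a higher mean in aged cells, against 57.8% of all listed coding sites. Of the 2 sites in a 3′ UTR, 0 had a higher mean, against 24.1% of all listed 3′ UTR sites. By share of methylated cells all 9 coding sites were higher in aged cells, where 94.7% of listed coding sites were, and both 3′ UTR sites were higher, where 49.2% of listed 3′ UTR sites were. By C-to-U within methylated cells 6 of the 9 coding sites were higher in aged cells, against 35.6% of listed coding sites, and 0 of the 2 3′ UTR sites, against 36.7%. The median mean C-to-U of the 9 coding sites was 1.62% in aged and 0.383% in young cells, and over all 804 listed coding sites it was 0.261% in aged and 0.179% in young cells. Sites of a gene share cells, so these are counts over the table and no test was made of them.

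**Figure D4:**
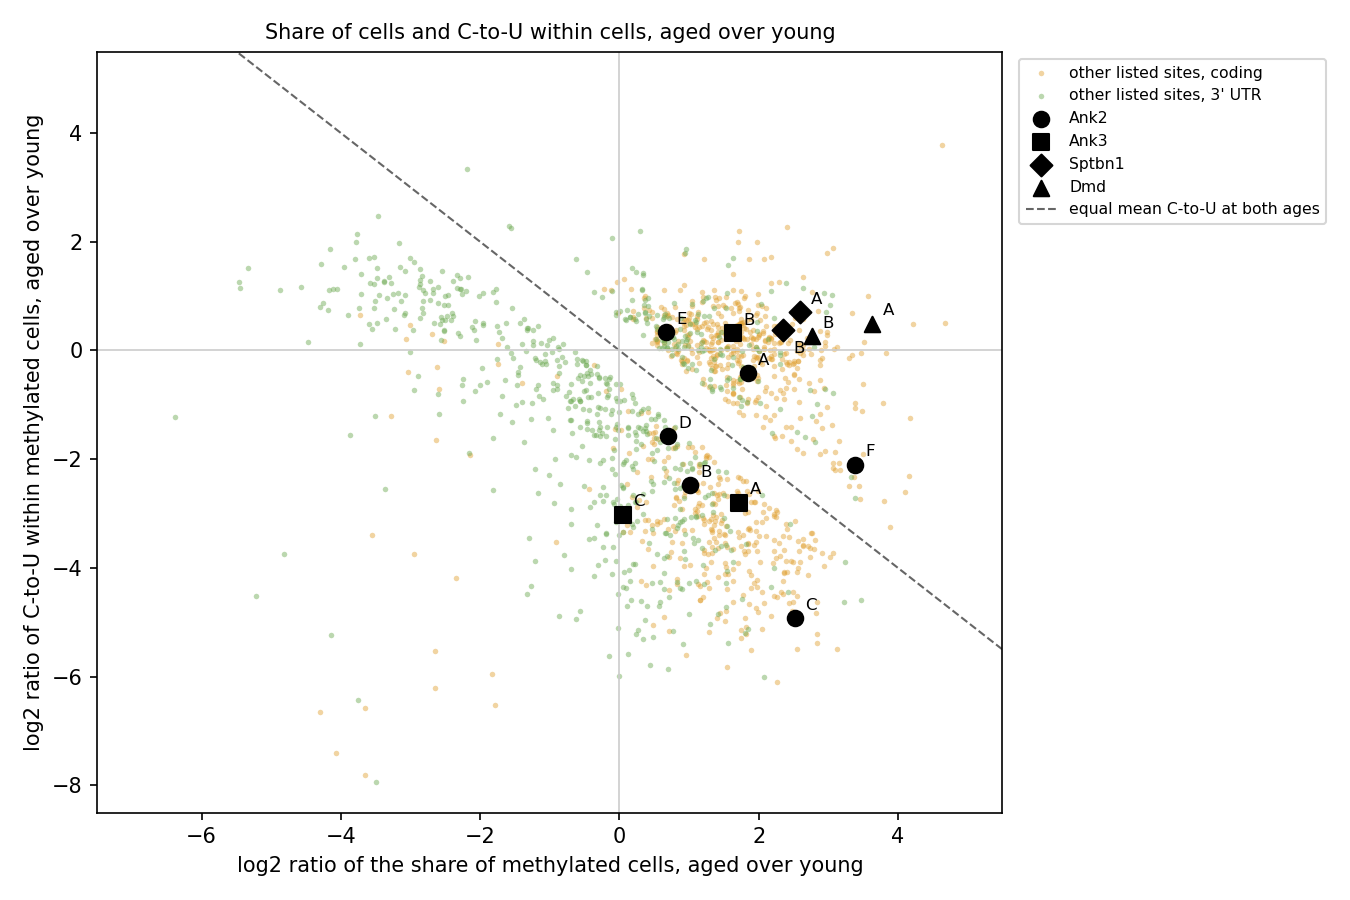
log2 ratio of the share of methylated cells (x axis) against log2 ratio of C-to-U within methylated cells (y axis), both aged over young, for the 13 sites (black, lettered) and the other listed coding (orange) and 3′ UTR (green) sites with a methylated aged cell. Mean C-to-U is higher in aged cells above the dashed line, and the empty band along it holds ratios of means under the table's limit of 0.58. The 4 Dmd and Sptbn1 sites are higher in aged cells on both axes.

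The edited C followed an A at 11 of the 13 sites, against 76.8% of all listed sites with an edited C. The 2 exceptions, Ank2 site B and Ank3 site C, were the 3′ UTR sites, and both had a T there. This count uses the base before the edited C alone, and whether that A was methylated was not tested. The letters around it varied. With the edited C as letter 4, they were GAACG at Ank2 sites D and E, AAACG at Ank2 site C and TAACG at Ank3 site A. They were ACACC at Ank2 site F, AAACT at Ank2 site A, AAACA at Ank3 site B and TAACA at Sptbn1 site A. Both Dmd sites and Sptbn1 site B shared the letters GAACAG, with the edited C as letter 4. The same letters on the strand of the gene stood at 2.83% of the listed sites with a full stretch of 21 bases, 56 of 1977. They were more frequent in coding sequence, where these 3 sites lie, with 44 of the 56 among the 804 listed coding sites. At Dmd site A and Sptbn1 site B the edited C was the first base of a CAG codon, which C-to-U turns into the stop codon TAG. At 17.5% of the listed coding sites the edit makes a stop codon. The Dmd sites lay in exons of 174 and 212 bases, 35 and 49 bases from the nearest exon junction. The Sptbn1 sites lay in exons of 871 and 282 bases, 156 and 35 bases from it. The 4 sites in the giant exon of Ank2 were 1032 to 2935 bases from a junction. Over all listed coding sites the median exon had 210 bases and the median distance was 59.5 bases. The coding sites with an annotated stop codon lay 1670 (Sptbn1 site B) to 6545 bases (Dmd site A) before it. None of the 13 stretches of 21 bases occurred in an annotated transcript of another gene, and no other annotated gene overlapped a site.

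Of 39 other genes of the membrane skeleton and its partners, 13 had a listed site, 27 sites in all. Aged cells had the higher mean at 15 of the 27, against 41.5% of all listed sites, and the higher share of methylated cells at 24, against 75.4%. By region, 13 of 20 coding sites had the higher mean, close to the 57.8% of all listed coding sites, and 2 of 5 3′ UTR sites did, against 24.1%. Taking for each gene its site with the largest difference, 7 genes were higher and 6 lower. Sptan1, the alpha-II spectrin that pairs with the product of Sptbn1, had both sites higher. Its larger mean was 2.42% in aged and 0.276% in young cells, with methylated cells at 3.07% (2.02 to 4.47) of aged and 0.534% (0.292 to 0.894) of young cells. The spectraplakin genes Dst and Macf1, which encode large linkers with spectrin repeats, had 5 of 5 and 1 of 1 sites higher. At the Dst site with the largest difference the mean was 3.75% in aged and 0.394% in young cells, and at the Macf1 site it was 1.93% in aged and 0.349% in young cells. Add2, an adducin that caps actin at the spectrin mesh, had its largest difference upward, at 3.30% in aged and 1.45% in young cells, but only 2 of its 6 sites had the higher mean. Nfasc, an adhesion molecule bound by ankyrin-G, was higher at its single site, with 0.584% in aged and 0.196% in young cells. Epb41l3, of the protein 4.1 family that joins spectrin to actin, had 0.205% in aged and 0.112% in young cells at a 3′ UTR site. Sntb2, a syntrophin that binds dystrophin, had 0.993% in aged and 0.478% in young cells, also in the 3′ UTR.

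The sodium channel genes Scn2a and Scn8a, whose products ankyrin-G holds at the initial segment, stood among the lower genes by their site with the largest difference. Over all its sites Scn2a had the higher mean in aged cells at 1 of 4 and the higher share of methylated cells at 3 of 4, and Scn8a had each at 1 of 2. The largest Scn2a difference was in coding sequence, with a mean of 0.392% in aged and 2.99% in young cells and methylated cells at 1.42% (0.735 to 2.46) of aged and 8.73% (7.68 to 9.88) of young cells. The largest Scn8a difference was in its 3′ UTR, where 1 aged and 116 young cells were methylated, 0.118% (0.00299 to 0.657) of aged and 4.42% (3.67 to 5.28) of young cells. The adhesion gene Nrcam and the tropomodulin genes Tmod1 and Tmod2 were also among the lower genes. Of these, Nrcam and Tmod1 had a higher share of methylated cells in aged cells and Tmod2 a lower one.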

How the data were processed

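A single deposited table of sites was used. Per the submitters' processing notes reads were aligned with STAR 2.7.5 to mm10, and sites were found with the Bullseye pipeline, per the design text of the series. That text describes nuclei sorted for NeuN, a neuronal marker, and total RNA, while the sample labels describe dissociated whole cells, with no sort, and polyA RNA. The sample labels were followed, and which holds was not settled, which bears on the cell types and on sites in transcripts with a retained intron. Per the file headers, the authors give the percent of cells methylated, the C-to-U fraction (printed here as a percent), counts of methylated cells, a log2 ratio of young over aged means, and a p-value and adjusted p-value. The deposited fraction within methylated cells and total of methylated cells were recomputed from these, and those 3 columns were not used. The sign of the deposited log2 ratio was turned. No listed site had fewer than 25 methylated cells or an absolute log2 ratio under 0.58, and the largest adjusted p was 0.04997. Positions were counted from 0 in the file and from 1 here. The region of a site came from the best-ranked GENCODE M21 transcript of its gene with an exon there (coding, APPRIS principal, CCDS, basic set, support level). Gene names matched for 781 genes, by an older name for 6 and not for 2. Intervals were computed with scipy 1.17.1 and tested on simulated data. The members and gene lists were chosen with earlier results of these data known. All listed sites of the 4 genes are named, and of the 39 other genes those with a listed site, except that some items are not reported here.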

Additional observations from a re-analysis of the deposited data

How the results depend on the processing

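Of the 13 sites, 8 had the higher mean in aged cells. The count was 13 of 13 by share of methylated cells, and 6 of 13, a minority, by C-to-U within methylated cells. It was 4 of 6 with at least 50 methylated cells and 7 of 12 with at least 10 at each age. With the authors' adjusted p under 0.01 it was 8 of 12. Leaving out a gene, it was 5 of 7 without Ank2, 7 of 10 without Ank3, 6 of 11 without Sptbn1 and 6 of 11 without Dmd. For coding sites it was 7 of 9, and 4 of 6 with at least 50 methylated cells. For 3′ UTR sites it was 0 of 2, and 2 of 2 by share. No 3′ UTR site was left with at least 50 methylated cells or in the transcript with the longest coding sequence. Averaged over the sites of a gene, the aged minus young mean was 0.19 points in Ank2, and 0.0784 as a median or 0.0651 without its largest site. In Ank3 it was 0.102 points, and -0.0176 as a median or -0.163 without its largest site, so its sign rested on site B. In Dmd it was 4.66 points, and 2.39 without site A. In Sptbn1 it was 3.38 points and kept within 1.5 times. With positions counted from 1 in place of 0, the edited C followed an A at 0 in place of 11 sites. No paired analysis was possible because the table holds no value per library. Between 26 (Ank3 site B) and 95 (Dmd site A) methylated cells stood behind each site.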

Other observations

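Dmd and Sptbn1 encode proteins built of spectrin repeats, and so do 23 other genes of a list drawn up after the values of Sptan1, Dst and Macf1 were seen. Of these, 7 genes (Actn4, Dst, Kalrn, Macf1, Sptan1, Syne1 and Trio) had a listed site. At 15 of their 16 coding sites the mean was higher in aged cells, against 57.8% of all listed coding sites, and the exception was a Kalrn site. By share of methylated cells all 16 were higher, near the 94.7% of all listed coding sites. Without Sptan1, Dst and Macf1, whose values prompted the list, 7 of 8 coding sites had the higher mean. Syne1, which encodes the nuclear envelope protein nesprin-1, had 4 coding sites, the largest with 3.62% in aged and 0.678% in young cells. Of the 7 sites in 3′ UTRs 3 had the higher mean.

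Direction also went with the letters before the edited C, which were looked at after both Dmd sites and Sptbn1 site B were seen to share them. Among listed coding sites with GAAC, C being the edited base, 222 of 251 (88.4%) had a higher mean in aged cells, against 243 of 553 (43.9%) with other letters. The other letters looked at varied among coding sites. The mean was higher at 89 of 145 with AAAC, 39 of 70 with AGAC and 4 of 7 with ACAC. It was higher at 7 of 15 with TAAC, 11 of 33 with GGAC and 10 of 42 with TGAC. In 3′ UTRs 24 of 57 GAAC sites (42.1%) were higher, against 144 of 640 others (22.5%). The 4 genes held 5 of the GAAC coding sites. Of the 16 coding sites of the other spectrin-repeat genes, 10 had GAAC, and all 10 were higher, as were 5 of the 6 with other letters. These are counts over sites in the table, with no test, and the part that the letters have in the result was not tested.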
